A study of Mus musculus with 8 samples.

Results

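Insulin-like growth factor (IGF) signalling genes were followed in mesenchymal stem and progenitor cells (MSPCs) of mouse bone marrow. The 10 genes described here are the ligand gene Igf1, the binding protein genes Igfbp2, Igfbp3, Igfbp4, Igfbp5, Igfbp6 and Igfbp7, the receptor genes Igf1r and Igf2r, and Igf2bp2, out of 52636 genes in the count table. They were chosen by their level in MSPCs and by the difference between the genotypes, so that both are given below as a description, with no test. Of the 10 genes, 9 had at least 1 read in every library and entered the fits across all genes, and Igfbp6 did not.

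The 8 libraries were made from poly(A) RNA of MSPCs, each from a single C57BL/6 mouse, with 4 CTR mice of genotype Flk2-cre+ Cxcr4fl/+ and 4 cKO mice of genotype Flk2-cre+ Cxcr4fl/fl. Both groups carry the Flk2-cre transgene, which is inserted on the Y chromosome, and CTR mice carry 1 floxed Cxcr4 allele. Flk2-cre is active in multipotent progenitors and the blood cells below them, so the cells sequenced here are not those meant to lose Cxcr4, and the comparison asks whether MSPCs differ when the hematopoietic cells around them lack CXCR4. The labels give an age of 6 weeks for all 8 mice, whereas the methods give an older range for the mice of the study. The sort kept cells without the blood markers CD45 and Ter119 and the vessel markers CD31 and CD144, and with PDGFRα and SCF-GFP, a reporter at Kitl that the genotype labels do not list.

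Total counts per library were 31047344 to 38216877, with 18366 to 20684 genes detected. Cxcr4 had 19, 14, 13 and 4 reads in CTR1 to CTR4 and 12, 7, 11 and 0 reads in cKO1 to cKO4, so that it was scarce in MSPCs of both genotypes and does not check the labels. All 10 genes that define marrow stroma were above 1 CPM on average. Their summed level was 59843 to 76758 CPM in CTR and 62600 to 76211 CPM in cKO, most of it Cxcl12. Of 17 hematopoietic markers, 8 were under 1 CPM, Ptprc, Cd3e and Itgam among them. The highest were Kit at 87.9 CPM on average, the globin genes Hbb-bs at 64.7 and Hba-a1 at 39.3, and S100a9 and S100a8 at 16.5 and 15.9. The list summed to 227 to 278 CPM in CTR and 188 to 293 CPM in cKO. Pecam1, Cdh5 and Kdr were among 7 of 12 endothelial markers under 1 CPM, and that list reached at most 19.9 CPM. Osteoblast markers summed to 10633 to 13649 CPM in CTR and 10600 to 16100 CPM in cKO, with Ibsp the highest. The library titles also carry a number, which was 26 to 32 in CTR2, CTR4, cKO2 and cKO4 and 67 to 86 in CTR1, CTR3, cKO1 and cKO3. What the number stands for is not given in the sources used here, and the libraries are called title number groups below.

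IGF1 is a secreted growth factor that signals through the tyrosine kinase receptor IGF1R and the IRS, PI3K and AKT proteins. Outside the cell most of it is held by IGF binding proteins, which lengthen its lifetime and limit or carry it to the receptor, and which proteases cleave to set it free. IGF2R, also known as the cation-independent mannose 6-phosphate receptor, clears IGF2 and sorts lysosomal enzymes. In bone, IGF1 and its binding proteins are known for their part in osteoblast growth and in the store of growth factors held in matrix.

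MSPCs held more RNA for Igfbp3, Igfbp4, Igfbp5 and Igfbp7 than for the ligand or the receptors. This did not hold for Igfbp2 and Igfbp6, which were below Igf1, Igf1r and Igf2r by CPM. By CPM, counts relative to library sizes scaled by TMM, Igfbp4 ranked 2nd and Igfbp5 5th of all genes, Igfbp7 28th, Igfbp3 68th and Igf1 163rd, whereas Igf2r ranked 2320th, Igf1r 5503rd, Igf2bp2 5659th and Igfbp2 7793rd. Igfbp6 ranked 20499th. Together the 10 genes took 2.96% ± 0.23 (SD, n = 8) of all counts, and Igfbp4 alone took 1.5% ± 0.26 (SD, n = 8).

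Levels of different genes were compared per length, as CPM per kilobase of merged exons. On this scale Igfbp4 averaged 3395 ± 618, Igfbp7 2300 ± 250, Igfbp5 1614 ± 124 and Igfbp3 422 ± 133 (SD, n = 8). Igf1 followed at 63.2 ± 17.7, then Igfbp2 at 9.73 ± 6.37, Igf2r at 8.61 ± 2.24, Igf2bp2 at 4.36 ± 1.70 and Igf1r at 2.00 ± 0.39 (SD, n = 8). Each gene was above the next in 8 of 8 libraries, except that Igfbp2 was above Igf2r in 4 of 8 and Igf2r above Igf2bp2 in 7 of 8, so that these neighbours are not separated beyond their spread. With the longest transcript as length, Igf1 moved to 88.7, Igf1r to 2.94 and Igf2bp2 to 6.52, and the order of the means did not change.

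**Figure D1:**
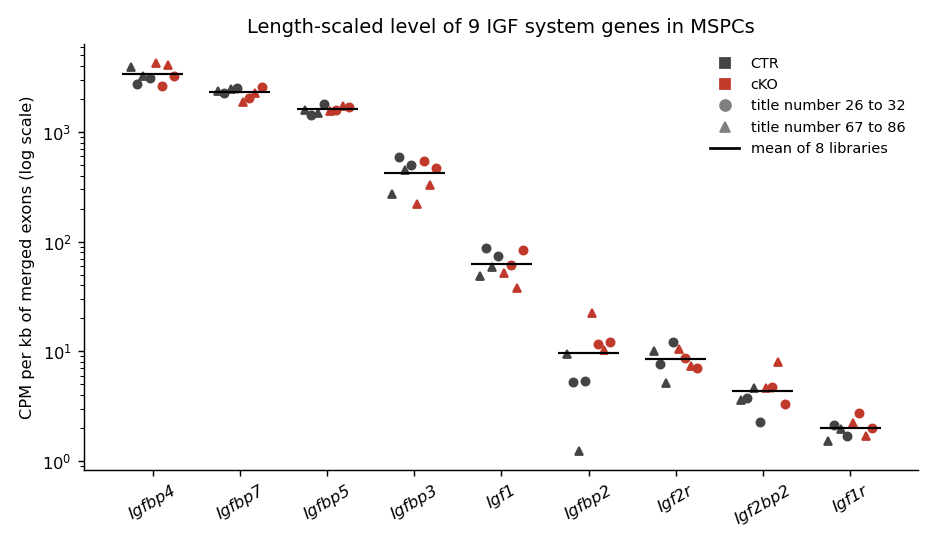
CPM per kilobase of merged exons on a log axis for the 9 genes with reads in every library, with 1 point per library, color for genotype, shape for title number group and a line at the mean of 8 libraries. Igfbp4, Igfbp7, Igfbp5 and Igfbp3 lie at 219 or higher in every library, Igf1 lies between 37.8 and 88.4, and the other 4 genes lie at 22.5 or lower.

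The 6 binding protein genes summed to 7740 ± 568 CPM per kilobase (SD, n = 8), and Igfbp4, Igfbp5 and Igfbp7 made up 94.3% ± 2.0 of this sum. Igfbp4 gave 43.6% ± 5.7, Igfbp7 29.8% ± 3.2, Igfbp5 20.9% ± 1.4, Igfbp3 5.56% ± 2.08 and Igfbp2 0.125% ± 0.081 (SD, n = 8). The summed binding protein level was 133 ± 46 times that of Igf1 (SD, n = 8), with a range of 79.3 to 222 over libraries, or 103 ± 36 times with the longest transcript as length. It was 121 ± 37 times in CTR and 145 ± 56 times in cKO (SD, n = 4), and the ranges of both genotypes overlapped. These are RNA levels, and no protein was measured in these libraries. The sum includes Igfbp7, whose protein binds IGFs weakly, so the ratio is no measure of binding capacity for IGF1.

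Igfbp2 and Igfbp5 are neighbours on chromosome 1 of GRCm38 (GENCODE M21). Igfbp2 lies at chr1:72824503-72852474 on the plus strand and Igfbp5 at chr1:72857932-72874884 on the minus strand, tail to tail, with 5457 bases and 0 annotated genes between them. Per kilobase, Igfbp5 was 69.5 to 1215 times as high as Igfbp2 over the 8 libraries. The 250 bases before the start of each gene, as RefSeq gives it on GRCm38.p6, are shown for this pair and for Igfbp4, the highest of the 10 genes. RefSeq gives Igfbp2 a pair of starts, and the window of the upstream start is shown. RefSeq and GENCODE starts can differ, and the last bases of the Igfbp5 window lie inside the gene as GENCODE gives it. The motifs GGGCGG, the core of the GC box, and TATAAA, the TATA box core, were searched on both strands and are in capitals where they occur.

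Igfbp2, chr1:72824230-72824479, plus strand: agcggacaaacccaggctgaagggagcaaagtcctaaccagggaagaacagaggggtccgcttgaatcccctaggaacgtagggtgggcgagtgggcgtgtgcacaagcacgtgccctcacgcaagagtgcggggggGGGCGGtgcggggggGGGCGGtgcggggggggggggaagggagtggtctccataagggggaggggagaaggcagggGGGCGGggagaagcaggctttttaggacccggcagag

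Igfbp5, chr1:72874866-72875115, minus strand: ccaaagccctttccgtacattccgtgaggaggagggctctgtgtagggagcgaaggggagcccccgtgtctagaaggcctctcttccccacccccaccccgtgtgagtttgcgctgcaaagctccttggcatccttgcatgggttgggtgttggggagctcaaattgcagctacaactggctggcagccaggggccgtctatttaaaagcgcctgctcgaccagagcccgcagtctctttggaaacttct

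Igfbp4, chr11:99040994-99041243, plus strand: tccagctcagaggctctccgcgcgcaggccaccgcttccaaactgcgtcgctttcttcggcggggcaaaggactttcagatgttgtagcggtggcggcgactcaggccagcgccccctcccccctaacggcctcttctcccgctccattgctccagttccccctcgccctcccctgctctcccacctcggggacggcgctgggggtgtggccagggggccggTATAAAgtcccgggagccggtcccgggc

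The upstream Igfbp2 window held 3 matches to GGGCGG and 0 to TATAAA, with 67.2% GC and 14 CpG sites. The other Igfbp2 window, chr1:72825137-72825386, held 0 matches to either motif, with 56.4% GC and 11 CpG sites. Neither motif was in the Igfbp5 window, which had 58.8% GC and 10 CpG sites. Igfbp4 had TATAAA 28 bases before its start and no GGGCGG, with 69.2% GC and 22 CpG sites. All 10 genes matched a RefSeq entry, with 11 windows in all, of which 5 held GGGCGG and 2 held TATAAA. Among all 32851 windows of this length, 32.7% held GGGCGG and 12.4% held TATAAA, and the median window had 52.4% GC and 6 CpG sites.

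In the genotype comparison, the number of genes past the threshold depended on the tool. With p-values adjusted by Benjamini-Hochberg and a threshold of 0.05, the quasi-likelihood test of edgeR called 0 of 14598 genes (0%), with 638 (4.37%) at an unadjusted p under 0.05. Adding the title number group to DESeq2's likelihood ratio test, a fit made after the data were seen, gave 47 genes (0.322%), and without that term DESeq2 called 22 genes by the likelihood ratio test and 23 by the Wald test. The libraries of both genotypes did not overlap for 1 of the 9, Igfbp2, where cKO was the higher, and for 390 of all genes (2.67%), of which cKO was the higher in 192 (1.32% of all genes). Since this contrast chose the genes, nothing is read from this count and no test is given for them. Of the 9, 5 had a positive and 4 a negative log2 fold change (cKO minus CTR), with a median of 0.048, beside -0.0055 over all genes tested.

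**Figure D2:**
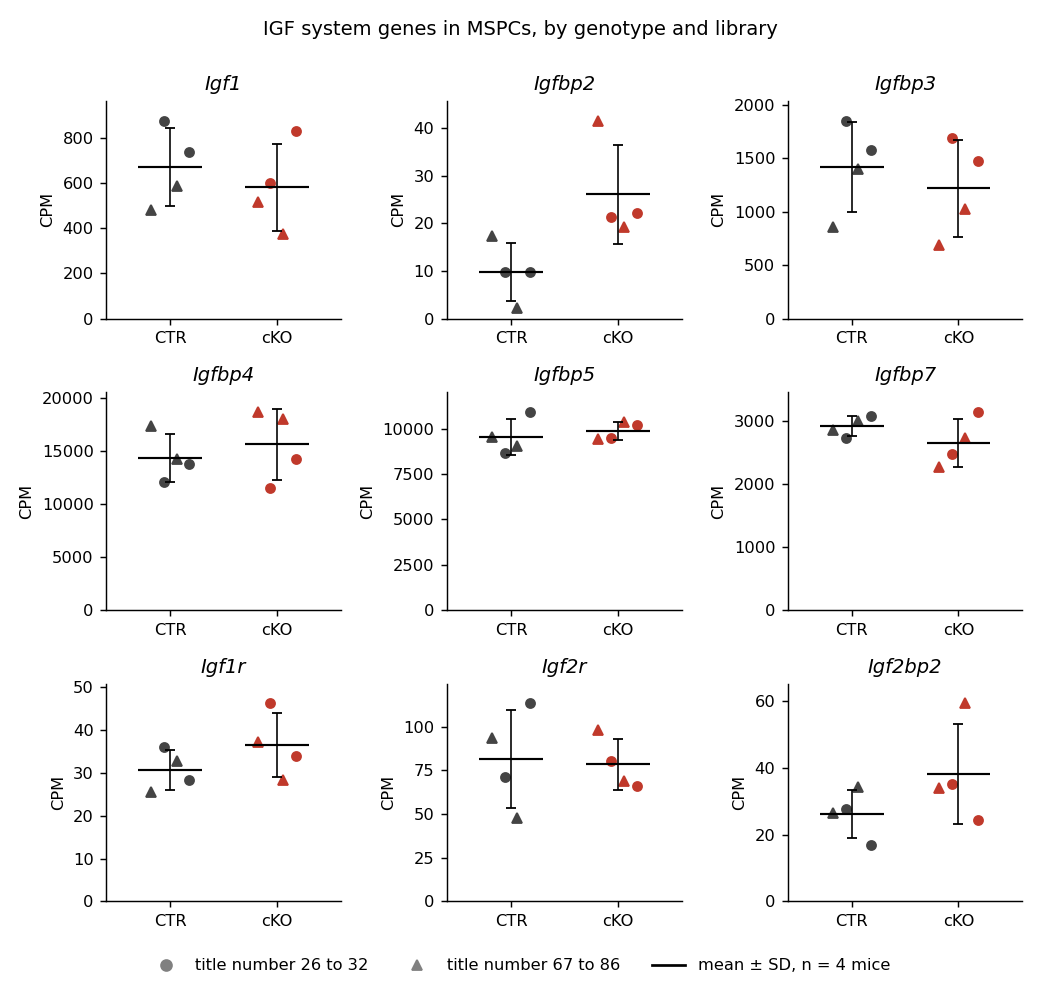
CPM in each library for the 9 genes, CTR in grey and cKO in red, with the title number group as shape and lines for the mean ± SD of 4 mice. The Igfbp2 libraries of cKO, from 19.2 to 41.6 CPM, all lie above those of CTR, from 2.29 to 17.3 CPM, and the other 8 genes overlap between genotypes.

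Igf1, at chr10:87858265-87937042 on the plus strand, encodes the ligand. Its level was 482, 876, 587 and 739 CPM in CTR1 to CTR4 and 516, 601, 375 and 829 CPM in cKO1 to cKO4. The genotypes overlapped over most of their range, and the log2 fold change was -0.21 (SE 0.25). It ranged from -0.43 without cKO4 to -0.046 without cKO3, and was -0.19 within title numbers 26 to 32 and -0.28 within 67 to 86.

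Igfbp2 encodes a binding protein that also circulates in blood. It was the scarcest of the 6 binding protein genes described here apart from Igfbp6. Its counts were 534, 321, 74 and 369 in CTR1 to CTR4 and 1364, 758, 627 and 855 in cKO1 to cKO4. This came to 17.3, 9.79, 2.29 and 9.89 CPM in CTR and 41.6, 21.4, 19.2 and 22.3 CPM in cKO. CTR3 was the lowest and cKO1 the highest library, and the lowest cKO library stood just above the highest CTR library. The CTR mean was 9.82 ± 6.13 CPM and the cKO mean 26.1 ± 10.4 CPM (SD, n = 4), and the log2 fold change was 1.41 (SE 0.49). The value was 1.08 without CTR3, 1.84 without CTR1, 1.15 within title numbers 26 to 32 and 2.15 within 67 to 86. In bulk RNA of sorted cells, a change in the share of cells that express a gene and a change in RNA per cell cannot be told apart.

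Igfbp3, at chr11:7206086-7213923 on the minus strand, encodes the main carrier of IGFs in the circulation. Its level was 859, 1854, 1396 and 1577 CPM in CTR1 to CTR4 and 687, 1689, 1022 and 1476 CPM in cKO1 to cKO4. The range of each genotype covered most of that of the other, and the log2 fold change was -0.22 (SE 0.29). It was -0.12 within title numbers 26 to 32 and -0.39 within 67 to 86, and moved to -0.027 without cKO1. With a term for the title number group the value was -0.26 (SE 0.18), and with the replicate number as a block -0.25 (SE 0.087). Compared within each replicate number, the cKO library was below the CTR library every time. The labels do not say whether these numbers pair the mice.

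Igfbp4, at chr11:99041244-99054392 on the plus strand, encodes a binding protein known to restrain IGF action until the protease PAPP-A cleaves it. It was at 17376, 12046, 14200 and 13764 CPM in CTR1 to CTR4 and at 18684, 11510, 18062 and 14291 CPM in cKO1 to cKO4. The highest and the lowest library were both cKO, and the log2 fold change was 0.12 (SE 0.18). It was -0.0057 within title numbers 26 to 32 and 0.23 within 67 to 86. A term for the title number group gave 0.11 (SE 0.12), and the replicate number as a block gave 0.11 (SE 0.097).

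Igfbp5 encodes the binding protein best known for its storage in bone matrix. Its level was 9513, 8640, 9053 and 10915 CPM in CTR1 to CTR4 and 9399, 9464, 10377 and 10175 CPM in cKO1 to cKO4. With a coefficient of variation of 7.69% it was the steadiest of the 9 genes over the 8 libraries, and the log2 fold change was 0.048 (SE 0.11).

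Igfbp7, at chr5:77349240-77408041 on the minus strand, encodes a secreted protein related to the binding proteins that binds IGFs weakly. It was at 2859, 2724, 3000 and 3069 CPM in CTR1 to CTR4 and at 2260, 2469, 2731 and 3137 CPM in cKO1 to cKO4. Its coefficient of variation was 10.9% and the log2 fold change -0.14 (SE 0.12). The gene shares 85 exonic bases with Polr2b on the opposite strand, and the strand setting of the counting is not given in the sources used here, so that reads of this stretch cannot be told apart.

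Igfbp6, at chr15:102144362-102149511 on the plus strand, encodes a binding protein that prefers IGF2. It had 10 reads in CTR4, 4 reads in cKO2 and 0 reads in the other 6 libraries, where 0 reads allow at most 0.0785 to 0.0966 CPM. Since nearly all libraries were at the floor, no fold change is given.

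Igf1r, at chr7:67952827-68233668 on the plus strand, encodes the signalling receptor for IGF1. Its level was 25.5, 36.0, 32.9 and 28.3 CPM in CTR1 to CTR4 and 37.1, 46.2, 28.4 and 33.8 CPM in cKO1 to cKO4. Of the cKO libraries, cKO1 and cKO2 were above every CTR library, and the other two fell within the CTR range. The log2 fold change was 0.25 (SE 0.17), and 0.11 without cKO2.

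Igf2r, at chr17:12682406-12769664 on the minus strand, was at 93.9, 71.3, 48.1 and 113 CPM in CTR1 to CTR4. In cKO1 to cKO4 it was at 98.5, 80.6, 69.1 and 66.3 CPM, within the CTR range in all 4 libraries. The log2 fold change was -0.055 (SE 0.24), with -0.30 within title numbers 26 to 32 and 0.30 within 67 to 86. Its sign turned when CTR1, CTR4, cKO3 or cKO4 was left out, and the value reached 0.15 without CTR4 and -0.24 without CTR3.

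Igf2bp2, at chr16:22059009-22163299 on the minus strand, encodes an RNA-binding protein named for its binding to the Igf2 messenger RNA, and is neither a ligand nor a binding protein of the secreted kind. Its level was 26.5, 27.8, 34.2 and 16.8 CPM in CTR1 to CTR4 and 34.0, 35.2, 59.4 and 24.4 CPM in cKO1 to cKO4. Of the cKO libraries, cKO1 and cKO2 lay near the top of the CTR range, cKO3 lay far above it, and cKO4 within it. Compared within each replicate number, the cKO library was above the CTR library every time. The log2 fold change was 0.54 (SE 0.28), fell to 0.25 without cKO3 and rose to 0.71 without cKO4. It was 0.44 within title numbers 26 to 32 and 0.58 within 67 to 86.

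Over the 9 genes, the genotype difference had the same sign in both title number groups in 7, the exceptions being Igfbp4 and Igf2r. The difference between the title number groups in the size of the genotype effect was tested as an interaction in edgeR, which called 0 of the 9 and 0 of 14598 genes (0%). At an unadjusted p under 0.05 there were 0 of the 9 and 500 of all genes (3.43%). The interaction was largest for Igf2r, at 0.57 on the log2 scale (SE 0.49, adjusted p = 0.9999 by edgeR's quasi-likelihood test), and each cell of this design held 2 libraries.

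The title number groups, a contrast that the choice of the genes did not use, differed more than the genotypes. With genotype as a covariate, edgeR's quasi-likelihood test called 2 of 14598 genes (0.0137%), Cldn1 and Srgn, named here after their values were seen, and 0 of the 9 genes. DESeq2's likelihood ratio test called 342 genes (2.34%), Igf1 and Igfbp3 among them. Its Wald test called 380 (2.6%), with Igf1, Igfbp3 and Igfbp4, whereas limma-voom called 1 gene (0.00685%) and none of the 9. At an unadjusted p under 0.05 in edgeR there were 4 of the 9 and 1690 of all genes (11.6%).

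Igf1 was at 601 to 876 CPM in title numbers 26 to 32 and at 375 to 587 CPM in 67 to 86, with no overlap. Its log2 fold change (67 to 86 minus 26 to 32) was -0.64 (SE 0.14), between -0.73 and -0.53 with 1 library left out, and did not pass in edgeR (adjusted p = 0.196) but passed in DESeq2's likelihood ratio test (adjusted p = 0.00652). Igfbp3 was at 1476 to 1854 CPM in 26 to 32 and at 687 to 1396 CPM in 67 to 86, also with no overlap. Its log2 fold change was -0.75 (SE 0.18, adjusted p = 0.209 in edgeR and 0.00780 in DESeq2's likelihood ratio test). The ratio of Igfbp3 to Igf1 in CPM was 2.21 ± 0.43 in 26 to 32 and 2.05 ± 0.62 in 67 to 86 (SD, n = 4), which overlapped.

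Igfbp4 went the other way, at 11510 to 14291 CPM in 26 to 32 and 14200 to 18684 CPM in 67 to 86, where CTR3 fell just below cKO4. Its log2 fold change was 0.40 (SE 0.12, adjusted p = 0.277 in edgeR, 0.0550 in DESeq2's likelihood ratio test and 0.0498 in its Wald test). Igf2bp2 had a log2 fold change of 0.55 (SE 0.24, adjusted p = 0.422 in edgeR). The remaining 5 genes had adjusted p-values between 0.649 and 0.941 in edgeR. Groups did not overlap for 2 of the 9 genes, beside 1001 of all genes (6.86%), and in both the libraries of 67 to 86 were the lower ones, as in 501 of all genes (3.43%).

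**Figure D3:**
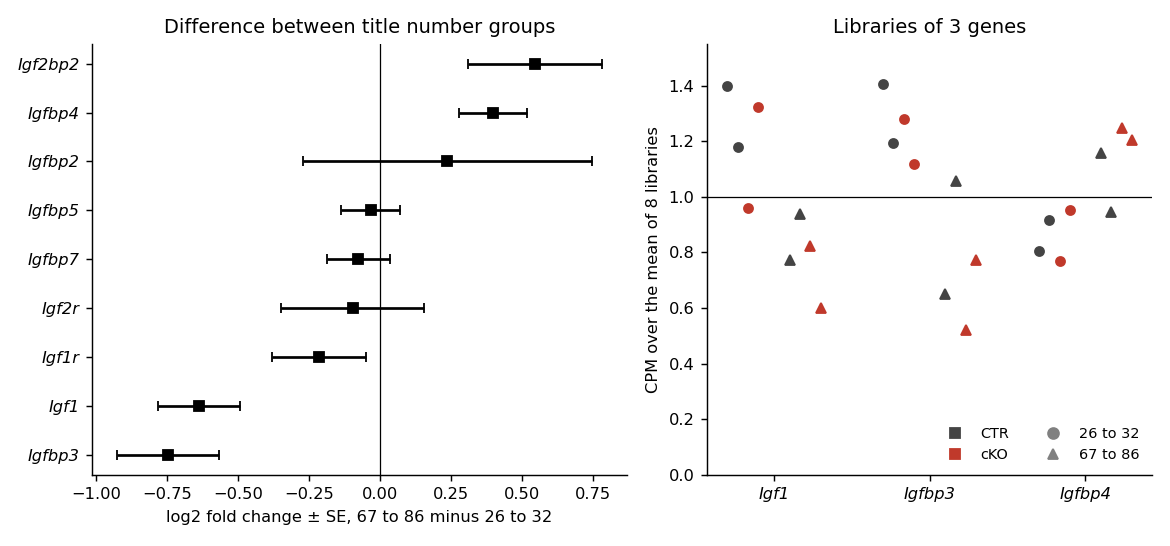
Left, log2 fold change ± SE between the title number groups (67 to 86 minus 26 to 32) with genotype as a covariate for the 9 genes; right, CPM of Igf1, Igfbp3 and Igfbp4 in each library divided by the gene's mean over 8 libraries. Igf1 and Igfbp3 are at -0.64 and -0.75 with no overlap between title number groups, and Igfbp4 is at 0.40 with a small overlap.

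The make-up of the binding protein RNA differed accordingly between the title number groups, as a description of the same libraries. Igfbp4 gave 38.5% to 40.4% of the binding protein sum per kilobase in 26 to 32 and 42.0% to 53.5% in 67 to 86, and Igfbp3 gave 5.89% to 8.44% and 2.77% to 5.83%. The binding protein sum was 79.3 to 112 times the Igf1 level in 26 to 32 and 129 to 222 times in 67 to 86. Other measures moved with these groups as well. The number of genes detected was 19363 to 20684 in 26 to 32 and 18366 to 18750 in 67 to 86, and the summed stromal markers were at 59843 to 67084 and 68706 to 76758 CPM, both with no overlap. Total counts were 32188963 to 38216877 in 26 to 32 and 31047344 to 33070784 in 67 to 86, with overlap. The number of genes detected was not adjusted for this depth. Osteoblast markers summed to 13498 to 16100 CPM in 26 to 32 and 10600 to 13795 CPM in 67 to 86, with 9 of 10 of them tested and 0 called. Cxcl12, at 44703 CPM on average, made up most of the stromal sum, and Ibsp, at 10664, most of the osteoblast sum. The sums therefore need not show how the other markers of each list moved. Hematopoietic markers overlapped, at 188 to 278 and 217 to 293 CPM. The part of these in the values of Igf1, Igfbp3 and Igfbp4 was not tested.

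Of the other genes of the IGF and insulin family, Ins1, Ins2, Igfbp1 and Igfbpl1 had 0 reads in all 8 libraries, whereas Igf2 and Insr had mean levels per kilobase between those of Igf1r and Igf2r. Igfbp1 is the neighbour of Igfbp3 on chromosome 11, on the opposite strand with 3539 bases and 0 genes between them. Igf2, the second ligand, had 935 to 2314 reads, and the insulin receptor gene Insr had 902 to 2014. Per kilobase, Igf2 averaged 7.83 and Insr 2.83 CPM, beside 63.2 for Igf1, 8.61 for Igf2r and 2.00 for Igf1r. Igfals, which encodes the third protein of the circulating IGF1 and IGFBP3 complex, had 172 to 428 reads, and Igf2bp3 had 13 to 73.

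The genes around the IGF system were listed by function in 5 lists of 106 genes, of which 86 were tested and 20 were not. Between genotypes, edgeR's quasi-likelihood test called 0 of the 86, where it called 0 of all 14598 genes. Of the 86, 3 (3.49%) had an unadjusted p under 0.05 in edgeR, beside 4.37% of all genes. The DESeq2 fit that includes the title number group also called 0 of the 86. There were 32 positive and 54 negative log2 fold changes (cKO minus CTR), where 51.1% of all genes tested were negative. Between the title number groups 0 were called by edgeR. All adjusted p-values of the genotype contrast named next were 0.9999.

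Proteases that cleave binding proteins and their inhibitors had 7 positive and 4 negative log2 fold changes in 11 tested of 15 genes, with a median of 0.059. Timp2, an inhibitor of metalloproteases, and Ctsd, the lysosomal protease cathepsin D, were the highest per kilobase, at 249.9 and 233 CPM, with log2 fold changes of 0.056 (SE 0.099) and 0.059 (SE 0.10). Htra3, a secreted serine protease, was at 154 ± 50 CPM in CTR and 190.3 ± 46.9 in cKO (SD, n = 4). Adamts1, a secreted metalloprotease, was at 223 ± 71 CPM in CTR and 154 ± 34 in cKO (SD, n = 4), a log2 fold change of -0.54 (SE 0.23, unadjusted p = 0.0392 in edgeR's fit across all genes).

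Genes of the growth hormone axis upstream of Igf1 had 3 positive and 6 negative log2 fold changes in 9 tested of 14 genes, and 5 were at 0 reads in every library. Socs3 and Cebpb were the highest per kilobase, at 188 and 135 CPM, with log2 fold changes of -0.39 (SE 0.33) and -0.11 (SE 0.18). Socs2, an inhibitor of growth hormone signalling, had the lowest value, -0.82 (SE 0.55), which was 0.80 within title numbers 26 to 32 and -1.99 within 67 to 86. The highest value was that of Stat5b, the transducer of the growth hormone receptor, at 0.061 (SE 0.11).

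In the IRS, PI3K and AKT list 47 of 51 genes were tested, with 14 positive and 33 negative log2 fold changes and a median of -0.050, beside -0.0055 over all genes tested. Akt1 and the adaptor gene Shc1 were the highest per kilobase, at 61.9 and 51.9 CPM, with log2 fold changes of -0.051 (SE 0.11) and 0.060 (SE 0.10). Ddit4, an inhibitor of mTORC1 that stress induces, was at 31.4 ± 24.4 CPM in CTR and 18.4 ± 10.4 in cKO (SD, n = 4). Sesn1, of the sestrin family, was at 30.4 ± 4.7 and 36.0 ± 6.8 CPM. Ptpn11, which encodes the phosphatase SHP2 and is named after its value was seen, had a log2 fold change of -0.30 (SE 0.12, unadjusted p = 0.0327 in edgeR's fit across all genes).

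All 15 genes of mannose 6-phosphate sorting around Igf2r were tested, with 6 positive and 9 negative log2 fold changes and a median of -0.046. Gnptab encodes the catalytic part of the enzyme that makes the mannose 6-phosphate tag. It was at 74.8 ± 13.2 CPM in CTR and 54.2 ± 11.7 in cKO (SD, n = 4), a log2 fold change of -0.47 (SE 0.18, unadjusted p = 0.0278 in edgeR's fit across all genes). Gnptg, for another part of the same enzyme, was at 98.1 ± 1.8 and 99.9 ± 10.1 CPM. Sort1, for the sorting receptor sortilin, was at 79.7 ± 10.4 and 107 ± 36 CPM. Snx2, a sorting nexin, was at 108.4 ± 5.7 CPM in CTR and 99.6 ± 2.6 in cKO, and did not overlap between genotypes. This held for 2 of the 86 genes (2.33%), beside 2.67% of all genes, the other being Foxo3 of the list before, which is named after its value was seen.

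**Figure D4:**
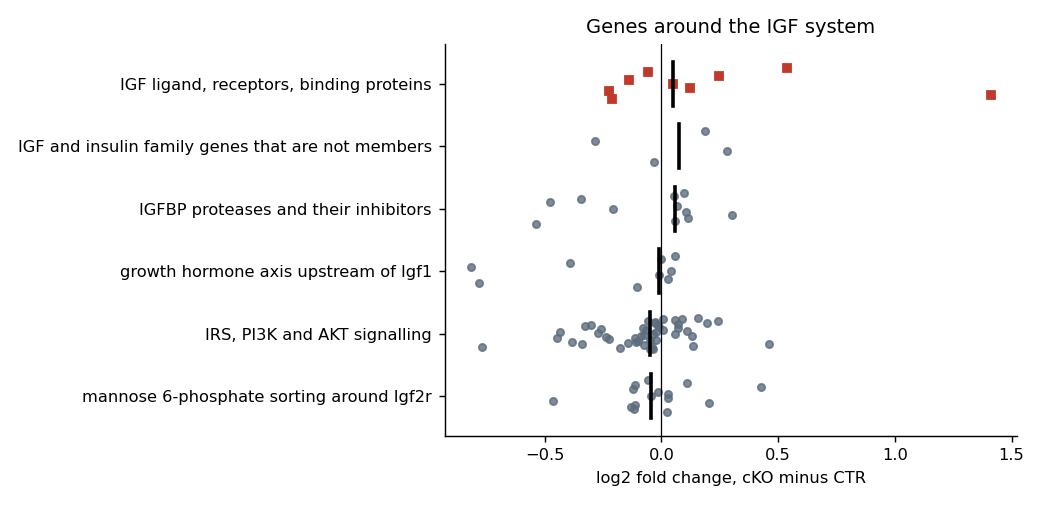
Log2 fold change (cKO minus CTR) of each tested gene in 5 functional lists, as circles, and of the 9 genes described above, as red squares, with a vertical line at each median. The list medians lie between -0.050 and 0.078, and 0 of the 86 listed genes passed the adjusted threshold in edgeR.

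The genes whose log2 CPM followed Igf1 and Igfbp2 most closely over the 8 libraries were sought among 9405 genes averaging 10 CPM or more. For Igf1 these were Rab11fip2, Dram1 and Reps1, with Pearson's r of 0.969, 0.968 and 0.962 and Spearman's rho of 0.905, 0.929 and 0.976. Without CTR2 and cKO3, the libraries farthest from the median of Igf1, r was 0.919, 0.922 and 0.900. For Igfbp2 these were 9930021J03Rik, Tpbg and Rb1, with r of 0.978, 0.969 and 0.963 and rho of 0.905, 0.738 and 0.857. Leaving out CTR3 and cKO1, at the ends of the Igfbp2 range, lowered r to 0.861, 0.800 and 0.912. The points are the same 8 libraries, so these values share depth, genotype and title number group. The genes named are the highest of 9405 over 8 points, a choice that by itself favors high values, and no test is given. The values with libraries left out are for the same genes, picked with all 8.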

How the data were processed

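The 8 libraries hold RNA of sorted MSPCs (4 CTR, 4 cKO). Per the methods, the authors aligned trimmed paired reads to GRCm38 (mm10) with HISAT2 and counted them per gene with HTSeq-count, and they deposited the raw counts, without normalization. Tool versions and the strand setting are not given in the sources used here. Genes were matched to symbols by Ensembl identifier (52403 of 52636 genes). Coordinates and exon lengths are those of GENCODE M21, another release than that of the methods.

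The 14598 genes counted at least once in each library were kept, TMM factors were computed, and edgeR 4.0.16 in R 4.3.3 was run (quasi-likelihood, glmQLFTest), with Benjamini-Hochberg adjustment over all of them and a threshold of 0.05. Per the methods, the authors' DESeq2 likelihood ratio test corrected for a batch, which neither they nor the labels name. Genotype was therefore fitted without covariates, and an added alternative includes the title number group. The title number group was fitted with genotype as a covariate, and their interaction with both as terms. edgeR gives no SE in this test, so each SE was derived from the same fit. It is the absolute log2 fold change divided by the square root of the F statistic. Alternatives were other scalings and filters, DESeq2 1.42.0 (Wald and likelihood ratio tests), limma-voom (limma 3.58.1), the replicate number as a block, and each library left out. Scripts were tested on simulated data.

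The genes described and all lists were chosen with earlier results of these data known. From each list the text names the 2 genes with the highest CPM per kilobase and, among those averaging 10 CPM or more, the genes with the most positive and most negative genotype log2 fold change, and any gene past the threshold. Log2 CPM used a prior count of 2. Detection limits cover counting error only. Promoter windows are from RefSeq, GRCm38.p6. Chondrocyte (55 to 118 CPM) and fibroblast markers (1.33 to 11.5 CPM, mostly Ly6a) were also summed. So were smooth muscle and pericyte (347 to 411 CPM, mostly Notch3) and Schwann cell markers (135 to 193 CPM, nearly all Ncam1). In these lists 0 were called between genotypes.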

Additional observations from a re-analysis of the deposited data

Results flagged for a closer look

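In groups of 4 libraries, the gap between an extreme library and its nearest neighbour was divided by the range of the group and compared with Dixon's critical value at 95%. Of 20 groups examined, 3 passed it. Chance gives about 1, and the ratio is 1 by construction in a group with reads in a single library, as in both groups of Igfbp6. Igfbp2 in cKO had a ratio of 0.863, with cKO1 at 41.6 CPM and the other three cKO libraries at 19.2 to 22.3 CPM. Its log2 fold change (cKO minus CTR) without any single library stayed between 1.08 and 1.84. Igfbp6 had a ratio of 1 in CTR, where CTR4 held 10 reads and the other three libraries 0, and a ratio of 1 in cKO, where cKO2 held 4 reads and the other three 0.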

How the results depend on the processing

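Across all genes, the genotype contrast called 0 genes in edgeR. It called 1 without a filter, 1 with filterByExpr, 23 with DESeq2's Wald test, 22 with its likelihood ratio test, 47 once that test included the title number group, an alternative chosen after seeing the data, and 0 to 0 with 1 library left out. The title number contrast called 2 genes, and 1 with DESeq2's size factors, 4 without a filter, 5 with a mean of at least 10 CPM, 380 with the Wald test, 342 with the likelihood ratio test, 1 with limma-voom and 0 to 4 with 1 library left out (0 without CTR1, CTR2 or cKO4, 1 without CTR4 or cKO2, and 4 without CTR3 or cKO3). Of the 9 IGF genes tested it called 0, 3 with the Wald test and 2 with the likelihood ratio test. The interaction called 0 genes, 22 with the Wald test, 20 with the likelihood ratio test and 0 to 3 with 1 library left out (1 without CTR2 and 3 without CTR4). Pathway genes called between genotypes remained 0 under every alternative run. The cause of these differences was not tested.

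Over 144 alternative values of the genotype log2 fold changes of the 9 genes, all moved by less than 1 SD of the gene's log2 CPM within genotypes. The sign changed in 5, all of Igf2r. Leaving out a single library can hardly move a group mean by 1 SD. That limit was therefore nearly certain to hold and says little about stability. Igf2bp2 moved by slightly more than its SE of 0.28 without cKO3, from 0.54 to 0.25. Of 126 for the title number contrast, 5 passed the threshold where edgeR did not, all with DESeq2 for Igf1, Igfbp3 or Igfbp4, and 6 changed sign, all with 1 library left out (2 each for Igfbp2 and Igf2r, 1 each for Igfbp5 and Igfbp7). Libraries with the same replicate number correlated in their deviations from the group means by 0.131, 0.176, 0.0844 and 0.0573, and 7 of 8 correlated best with their own number. With the replicate number as a block 0 genes were called, and 0 pathway genes. Replicate numbers 1 and 3 against 2 and 4 coincide with the title number groups, so no block was fitted in that contrast. Depth left 74 reads in the lowest library of Igfbp2 and 0 reads of Igfbp6 in 6 of 8 libraries.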
